A study of Mus musculus with 3 samples.

Results

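The 5 classes of replication-dependent histone genes were followed through RNA immunoprecipitation sequencing (RIP-seq) of YTHDF2, a protein that reads N6-methyladenosine (m6A) on RNA and promotes its decay. The genes were chosen by symbol. Every row of the count table named H2ac, H2bc, H3c or H4c with a number, or H1f1 to H1f6, was taken, and pseudogenes were left out. This gave 64 of 49997 genes, namely 6 H1, 18 H2A, 16 H2B, 12 H3 and 12 H4 genes. The cells were E14 mouse embryonic stem cells (ESCs) given doxycycline (Dox) for 24 h. In the ESC system of the study, Dox switches on a transgene for the transcription factor DUX and moves the cells toward a state like that of the 2-cell (2C) embryo, and the line also carries a tdTomato reporter driven by the Mervl promoter. There was 1 input library and there were 2 YTHDF2 immunoprecipitation (IP) libraries, all from Dox-treated cells. The IPs were made with 1 anti-YTHDF2 antibody. An IP with a control antibody, and cells without Dox, were not analysed here.

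Histones package DNA. The core histones H2A, H2B, H3 and H4 form the nucleosome, and the linker histone H1 binds where DNA enters and leaves it. Replication-dependent genes supply the bulk of these proteins in S phase, and their mRNAs are the known exception among animal mRNAs in that they end in a conserved stem-loop and not in a poly(A) tail. The stem-loop is bound by SLBP, which takes part in processing, translation and decay of the mRNA. Replication-independent histone genes, such as those for H3.3 and H2A.Z, are expressed outside S phase as well and give ordinary polyadenylated mRNAs.

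The stem-loop is the sequence that defines these mRNAs, so it was located first, in the GRCm38 (mm10) genome. The search used the letters CTTTT, any base and AG, with an arm of 4 pairing bases on each side, on the strand of the gene, in the last 200 bases of the gene and the 100 bases past its end. It was found there in 56 of the 64 genes (87.5%), compared with 106 of 49632 genes of the table that could be searched (0.214%, these 56 included). H2bc4 counts among the 56 only through a match near the annotated end of the gene with other stem letters, and its histone form lies upstream, so both are shown. Elsewhere in an exon, or within 100 bases past one, the motif was found in 4 further genes, which gives 60. No match lay in the windows searched for H2ac14, H2bc21, H3c8 and H4c1. The sequences below show what varies between classes, namely the stem, in which H4 genes differ from the others, and the last base of the 4-base loop. The 16 bases of stem and loop are in capitals, with 5 genomic bases on either side.
H1f2 (chr13:23739507-23739532, plus strand): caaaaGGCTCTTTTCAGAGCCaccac
H2ac15 (chr13:21753377-21753402, minus strand): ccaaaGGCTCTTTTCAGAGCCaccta
H2ac6 (chr13:23683472-23683497, minus strand): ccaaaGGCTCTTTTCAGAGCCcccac
H2ac22 (chr13:21786773-21786798, minus strand): acaaaGGCTCTTTTCAGAGCTaacac
H2bc4 (chr13:23684642-23684667, plus strand): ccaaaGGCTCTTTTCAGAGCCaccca
H2bc4, match near the annotated end (chr13:23692410-23692435, plus strand): aaaagAATGCTTTTAAGTGTTtgtca
H3c3 (chr13:23745042-23745067, minus strand): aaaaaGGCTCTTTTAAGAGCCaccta
H4c2 (chr13:23757361-23757386, plus strand): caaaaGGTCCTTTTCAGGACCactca
H4c18 (chr13:21831793-21831818, minus strand): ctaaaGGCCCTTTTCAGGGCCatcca
H4c9 (chr13:22040961-22040986, minus strand): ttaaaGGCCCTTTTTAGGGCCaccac
H2ax (chr9:44335235-44335260, plus strand): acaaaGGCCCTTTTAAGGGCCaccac

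The form shown for H1f2 was the commonest, in 38 of the 60 genes. It was held by 5 H1, 14 H2A, 11 H2B and 8 H3 genes and by none of the 11 H4 genes with a match, which held the forms shown for H4c2, H4c9 and H4c18. These counts take the first match of a gene, and 2 genes (H2bc4 and H2bc15) had more than 1. Over all matches there were 8 different stem-loops, of which that near the end of H2bc4 was the only one not beginning in GG. H2ax, the gene of the DNA damage histone H2A.X, is no member of the group but is known to give both a stem-loop mRNA and a polyadenylated one, and it holds the motif inside its annotated exon.

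Of the 64 genes, 54 lie on chromosome 13 between 21715711 and 23934913 and 10 on chromosome 3 between 96219885 and 96270192, and 60 consist of a single exon. No exon of theirs overlaps an exon of another gene. How alike the genes of a class are differed between classes. By translation of the RefSeq coding sequences, the 12 H4 genes encode 1 protein of 103 residues from 11 different coding sequences. The 12 H3 genes encode 2 proteins, with 8 genes sharing the commoner. The 17 H2A genes with a coding sequence encode 8, the 16 H2B genes 11 and the 6 H1 genes 6. The counting left out reads that mapped to several places, so reads from stretches that copies share could be lost. Of the 150-base windows of a member, a median of 29.1% occurred elsewhere in the genome. The share was 0% in 15 genes, including all 6 H1 genes, and 100% in H2ac23, H2ac24, H2bc23, H3c14 and H3c15, whose counts are therefore uncertain. The genes at 100% still had counts, such as 24 (input), 48 (IP replicate 1) and 68 (IP replicate 2) for H2bc23, so such reads were not all lost.

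The library totals were 36986994 (input), 35259827 (IP replicate 1) and 35888743 (IP replicate 2), and values of a gene are given in this order below. Markers of mouse ESCs were abundant in the input, with 10 genes at 224 to 1806 CPM (counts scaled to the same library total). The 7 markers of the 2C-like state were at 3.92 to 840 CPM. Of 8 fibroblast markers, Col3a1 and Dcn had no count in any library, and the highest was Thy1 at 26.9 CPM. The input was not replicated, so the error of every comparison comes from the spread between the 2 IP libraries, which the labels do not tie to separate cultures and which may be technical. A ratio of IP to input compares shares of libraries. In such bulk samples, fewer cells in S phase and less histone RNA per cell cannot be told apart.

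Counts of the replication-dependent histone genes were low in all 3 libraries. The 64 genes together had 5083, 5931 and 5784 counts. This was an input level of 137 CPM (95% Wilson interval 134 to 141) and IP levels of 168 (164 to 173) and 161 (157 to 165). The intervals cover counting error only and are too narrow, because both mates of a read pair were counted. The sources used here do not say whether polyadenylated RNA was selected for these libraries. Such a selection would lower the counts of mRNAs without a poly(A) tail. Low counts therefore need not mean little RNA in the cells, and which RNA forms were counted was not tested. The median member had 44.2 counts on average over the libraries, compared with 391 for all genes tested, and only H1f2, H2bc4, H3c3 and H4c9 reached a mean of 10 CPM. Per kilobase of exon, the highest members in the input were H4c9 with 25.9 CPM, H3c3 with 22.6, H4c18 with 15.8, H1f2 with 14.2 and H2bc4 with 14.1, and the median over the 64 genes was 2.31. This order takes no account of repeated windows, which made up 4.72% of H4c9, 22.7% of H3c3 and 85.6% of H4c18. Per kilobase left after taking off the share of repeated windows, H2ac18 and H4c18 stood at 116 and 110, H3c3 at 29.2 and H4c9 at 27.2, so the order among members is not settled. Genes with every window repeated still had counts, so these values may be too high. On the scale of full exon length, the replication-independent genes H2az1, H3f3a and H3f3b stood at 1118, 423 and 358, and H2ax at 590.

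**Figure D1:**
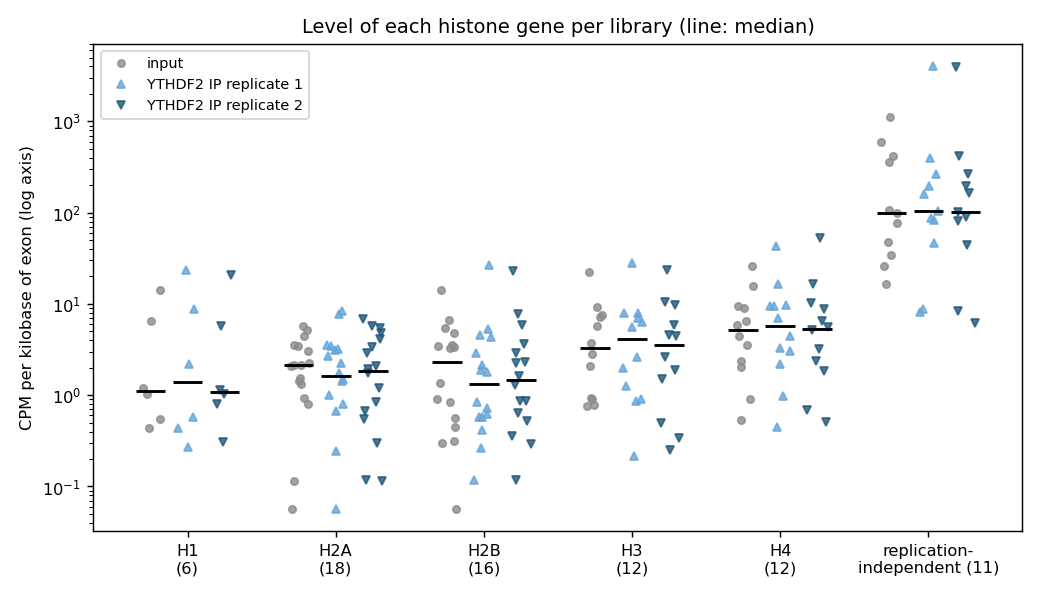
Level of each replication-dependent histone gene by class, and of the 11 replication-independent histone genes (H2ax included), in CPM per kilobase of exon on a log axis, in the 3 libraries. Each symbol is 1 gene, the line is the median over the genes, and genes without a count are left off; members reached at most 25.9 in the input, whereas H2az1 stood at 1118.

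Summed over genes, H4 had the highest level, at 35.4, 45.2 and 46.5 CPM. H1 had 17.6, 26.1 and 21.9, and H2B had 30.6, 38.2 and 36.8. The IP libraries were above the input in these 3 classes. H3 had 33.6, 37.5 and 34.4 CPM and H2A 20.3, 21.2 and 21.7, so the libraries lay close together. The sums leaned on single genes. H1f2 supplied 58.5% of the input counts of H1 and 64.7% and 68.9% of its IP counts, H2bc4 35.7% of H2B and then 54.6% and 48.6%, and H4c9 29.5% of H4 and then 38.1% and 45.3%. Without these 3 genes, the other members summed to 106, 113 and 107 CPM.

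**Figure D2:**
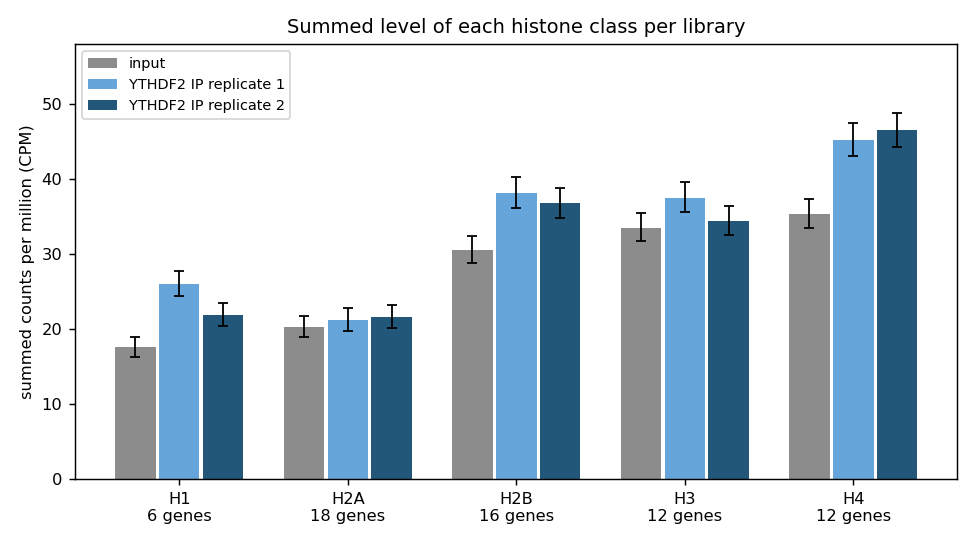
Summed CPM of each histone class (vertical axis) in the input and in IP replicates 1 and 2, with 95% Wilson intervals that cover counting error only. H4 lies at 35.4 in the input and at 45.2 and 46.5 in the IP libraries, whereas H2A lies between 20.3 and 21.7 in all 3.

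To determine whether YTHDF2 pulled down RNA of the 64 genes, IP was compared with input over all genes by the quasi-likelihood F test of edgeR with Benjamini-Hochberg adjustment. Of the 64 members, 59 passed the filter on low counts. The 5 that did not were H2ac1, H2ac20, H2ac21, H2bc1 and H2bc15, each with at most 9 counts in any library except H2ac21, which had 11 counts in IP replicate 1 and 0 in both others. With an adjusted p-value below 0.05 and more than 2-fold as the thresholds, 1 member was enriched (background 15.2% of the 19601 genes tested) and 2 were depleted (background 14.0%). These 3 were H2A genes, and no H1, H2B, H3 or H4 gene was called. At any fold change, 6 of the 59 passed the adjusted p-value (10.2%, background 58.6%), namely 1 H1, 3 H2A, 1 H2B, no H3 and 1 H4 gene. DESeq2 called no member at these thresholds, compared with 12.5% of genes enriched and 10.6% depleted. Both IP libraries were above the input for 13 members (22.0%, background 44.2%) and below it for 23 (39.0%, background 45.3%), and for the other 23 the IP libraries lay on opposite sides of the input or level with it. All members but H1f2, H2bc4, H3c3 and H4c9 had a lower mean count than the median gene. The 95% interval of the log2 fold change lay wholly within 2-fold in either direction for 14 members. For the remaining 45 it reached beyond 2-fold, so a change of that size was neither shown nor bounded for most of them.

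The H1 genes had a median log2 fold change of 0.19 in the fit and of −0.05 and −0.21 in IP replicates 1 and 2 taken alone, so the median has no settled sign. The fitted values ranged from −0.71 to 0.54. H1f2, one of the linker histones expressed in most dividing cells, had 381, 595 and 541 counts. Both IP libraries were above the input, and the log2 fold change of 0.54 ± 0.17 (SE) passed the test (adjusted p = 0.00455) but not the fold threshold, and turned to −0.24 once a trend on GC content, described below, was removed. H1f1 had 178, 229 and 152 counts, on both sides of the input, with 0.06 ± 0.27 (adjusted p = 0.869). H1f3 was also split, at 34, 60 and 32 counts. H1f4 had 16, 12 and 29 counts. H1f5 (30, 16 and 23) and H1f6, the testis form (12, 7 and 8), were lower in both IP libraries and did not pass. H1f1 and H1f2 were the best measured of the class, and the 95% intervals of both lay within 2-fold.

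The H2A genes had a median of −0.33 over 15 tested, and the widest range, from −3.97 to 1.52. H2ac15 (chromosome 13, 21753377 to 21753912, minus strand, single exon, no repeated windows) had 16, 61 and 34 counts. It was enriched, with a log2 fold change of 1.52 ± 0.67 (adjusted p = 0.0437). H2ac10 (chromosome 13, 23533875 to 23534378, plus strand) had 40, 1 and 10 counts, and was depleted by −2.87 ± 0.82 (adjusted p = 0.00174). H2ac6 (chromosome 13, 23683473 to 23683959, minus strand) had 17, 0 and 2 counts and was depleted as well (adjusted p = 0.0136). The summed IP level of H2ac6 was 6.12% of its input level in CPM (exact 95% interval for counting error 0.685% to 25.8%). This interval pools the 2 IP libraries and is too narrow, because both mates of a read pair were counted. These calls rest on few counts, and each was lost in some of the alternative analyses. The adjusted p ranged up to 0.36 for H2ac15, 0.108 for H2ac10 and 0.172 for H2ac6. By single IP libraries, with no test, H2ac10 was at −2.04 without IP replicate 1 and at −5.18 without IP replicate 2, and H2ac15 at 1.03 and 1.90. H2ac6 was at −3.06 without IP replicate 1, and IP replicate 1 alone had no count of it. Without the low-count filter only H2ac10 was called, and DESeq2 called none of them.

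The other H2A genes did not pass. H2ac18, the highest per kilobase in the input, had 117, 68 and 137 counts, with a log2 fold change of −0.23 ± 0.35 (adjusted p = 0.589). It shares 95.1% of its windows with other loci, and was depleted once the GC trend was removed (−1.24, adjusted p = 0.00227). H2ac8 had 107, 165 and 116 counts (0.35 ± 0.32, adjusted p = 0.357), and turned to −0.19 on removal of that trend. H2ac23 had 29, 53 and 57 counts and H2ac13 had 58, 122 and 77, both above the input in each IP library. H2ac19 (34, 17 and 18), H2ac22 (53, 38 and 33), H2ac4 (40, 31 and 22) and H2ac7 (26, 19 and 13) were below it in each. The H2A class thus held members on both sides of the input, and 8 of its 15 were below it in both IP libraries (background 45.3%).

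The H2B genes had a median of −0.24 over 14 tested. H2bc4, the highest member of the class, had 403, 735 and 641 counts. Its log2 fold change was 0.73 ± 0.16 (adjusted p = 5.74e-05), which is past the test and under 2-fold, and it was 0.64 with the GC trend removed (adjusted p = 0.000469). H2bc12 had 124, 94 and 106 counts (−0.35 ± 0.33, adjusted p = 0.369), and −0.81 after removal of the trend (adjusted p = 0.0321). H2bc23 had 24, 48 and 68 counts and H2bc6 had 29, 64 and 58, and at 1.23 ± 0.57 and 1.03 ± 0.53 neither passed (adjusted p = 0.0576 and 0.0913). H2bc18 showed how far the IP libraries can part, with 61, 10 and 51 counts.

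Within the H2B class the values differed with the annotated length, a split made after the values were seen. The 5 tested genes with over 600 bases of exon (H2bc4, H2bc6, H2bc21, H2bc22 and H2bc23) had a median log2 fold change of 0.73 and a range from −0.44 to 1.23. Their exons have 45.4% to 52.5% GC and, H2bc21 excepted, lie in more than 1 piece. The 9 shorter genes, of 448 to 522 bases and 53.8% to 61.6% GC, had a median of −0.35 and a range from −1.34 to 0.13. None of them was above the input in both IP libraries and 6 were below it in both. Of the 5 longer genes, 3 were above it in both and 1 below (background 44.2% above and 45.3% below). The ranges of the longer and the shorter genes overlap. Whether the counts of the longer genes come from the stem-loop transcript or from a longer one cannot be told from sums over exons.

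The H3 genes had a median of −0.06 over 12 tested, which turned to 0.04 and 0.09 when scaled to library totals or to TPM, which also divides by exon length, and the log2 fold changes ran from −1.80 to 0.33. H3c3, the highest, had 401, 475 and 405 counts, or 0.09 ± 0.18 (adjusted p = 0.672), and its 95% interval ran from −0.26 to 0.45. It turned to −0.67 after removal of the GC trend (adjusted p = 0.000983). H3c8 had 167, 139 and 105 counts (−0.49 ± 0.29, adjusted p = 0.144), with both IP libraries below the input, and was depleted once the GC trend was removed (−1.35, adjusted p = 6.98e-05). H3c10 (138, 137 and 172), H3c11 (127, 118 and 181) and H3c6 (125, 179 and 144) lay near or above it. The lowest was H3c14, with 19, 5 and 6 counts, all of whose windows are repeated. In 8 of the 12 H3 genes the IP libraries did not lie on the same side of the input.

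The H4 genes had a median of −0.02 over 12 tested, which turned to 0.07 and 0.13 under those scalings. Their log2 fold changes ranged from −1.03 to 0.78, although all 12 encode the same protein. H4c9, the highest member per kilobase of full exon length, had 386, 607 and 756 counts and a log2 fold change of 0.78 ± 0.16 (adjusted p = 2.91e-05), again under 2-fold. Removal of the GC trend left 0.17, which did not pass (adjusted p = 0.404). With a fixed dispersion of 0.1 neither H1f2, H2bc4 nor H4c9 passed (adjusted p = 0.568, 0.413 and 0.381). With DESeq2, H2bc4 and H4c9 passed the adjusted p-value (0.0068 and 0.00519) and H1f2 did not (0.0759). H4c18 had 237, 239 and 244 counts (−0.01 ± 0.23, adjusted p = 0.968), so its libraries were nearly level, although 85.6% of its windows are repeated. With the GC trend removed it was at −0.63 (adjusted p = 0.0179), within 2-fold. H4c12 had 145, 141 and 151 counts and H4c4 had 133, 136 and 126, with fitted values of −0.03 and −0.06. H4c14, 1 of 8 tested members on chromosome 3, had 13, 6 and 7 counts. H4c9 and H4c14 are the tested members whose loop ends in T.

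**Figure D3:**
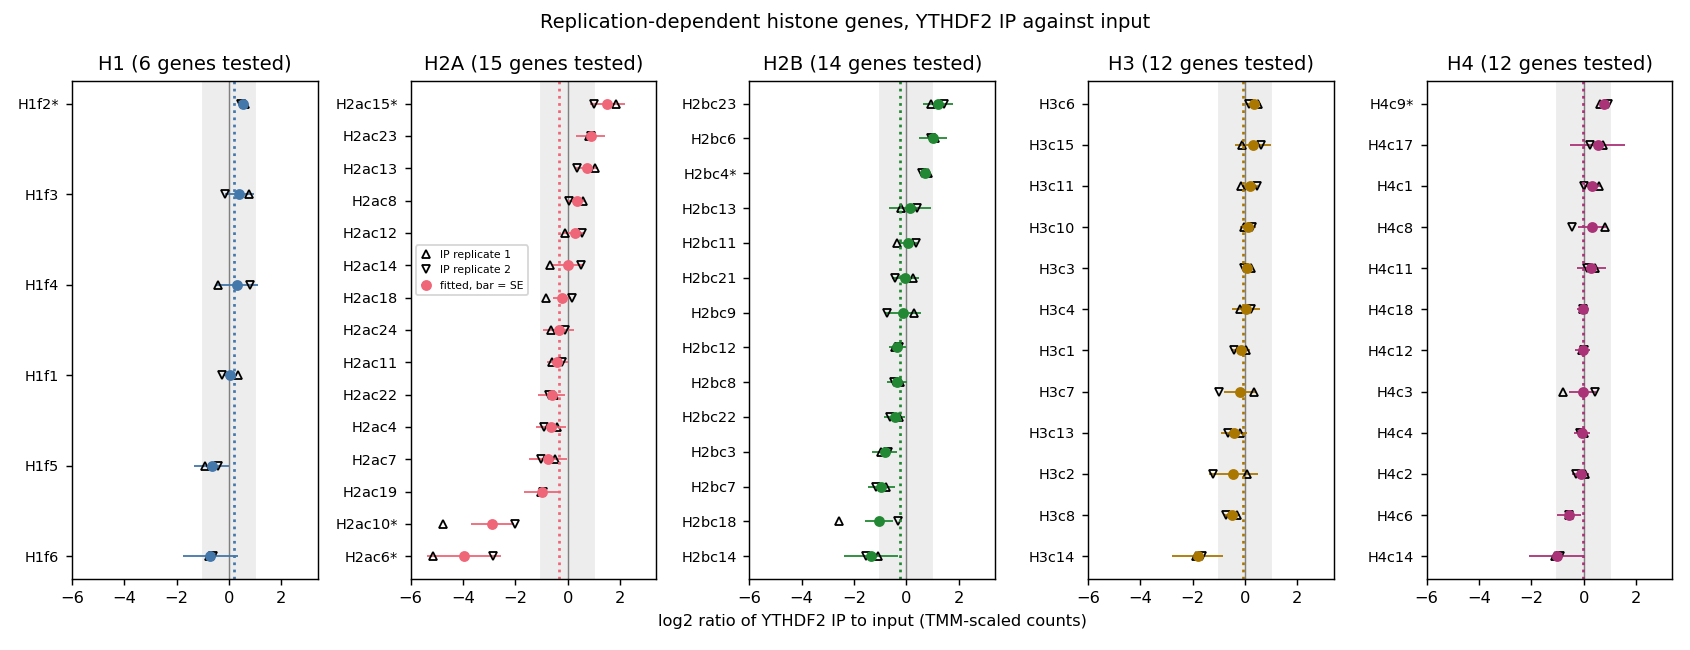
Log2 ratio of YTHDF2 IP to input (horizontal axis) for the 59 tested members by class. Filled circles are fitted log2 fold changes with SE bars, open triangles are single IP libraries, the dotted line is the class median, the grey band is the range within 2-fold, and an asterisk marks an adjusted p-value under 0.05; H2ac15 lies right of the band and H2ac10 and H2ac6 left of it, at 1.52, −2.87 and −3.97.

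Over the 59 tested members together, the median log2 fold change was −0.04 (quartiles −0.52 and 0.31), compared with 0.01 (quartiles −0.72 and 0.81) over all genes tested. The 18 members with a mean of at least 100 counts had a median of 0.08 and a range from −0.49 to 0.78, and the log2 ratio of the IP libraries to each other had an SD of 0.43. The 41 members under 100 counts had a median of −0.33, a range from −3.97 to 1.52 and an SD of 0.94. Across the 59 members, which share the same 3 libraries, log2 fold change and mean CPM had a Spearman rho of 0.47 and a Pearson r of 0.33. The IP counts enter both the mean and the fold change, so part of this is built in. With the input CPM alone, which enters the fold change as its divisor, rho was 0.17 and r 0.26, and the 17 members with at least 100 input counts had a median of 0.06 and the 42 others −0.26. The 51 tested members on chromosome 13 had a median of −0.01 and the 8 on chromosome 3 had −0.70. Among the latter, H2ac19, H2bc18, H3c14 and H4c14 were at −0.99, −1.04, −1.80 and −1.03, and H3c15 was at 0.31. H2bc21, H2ac18 and H3c13 were at −0.04, −0.23 and −0.40. None of the 8 passed the adjusted p-value, and only H2ac18 had a mean of at least 100 counts.

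Features of sequence that the selection did not use were set beside these values. By the last base of the loop, the tested members ending in C (46 genes) had a median log2 fold change of −0.05, those ending in A (7 genes) −0.19, and H4c9 and H4c14, which end in T, were at 0.78 and −1.03. Of the letters GGAC, a common core of m6A sites, counted on the strand of the gene, tested members held a median of 2.23 per kilobase of exon, compared with 3.99 for all genes tested, and 13 of the 64 members held none. The classes differed, with medians over all members of 1.32 for H1, 1.95 for H2A, 2.05 for H2B, 6.12 for H3 and 3.50 for H4. The H3 median thus lay above that of all genes tested. GGAC density and log2 fold change had a Spearman rho of 0.12 over the tested members. For the share of repeated windows the rho was 0.02.

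GC content moved with the comparison of members with other genes. The exons of the 64 members had a median GC content of 60.8%, whereas the median over all genes tested was 49.7%. Over the 19554 tested genes with a GC value, log2 fold change was higher at higher GC (Spearman rho 0.31, Pearson r 0.27, across genes that are not independent replicates). Over the members it was not (rho −0.11, r −0.21). At the GC content of the tested members the trend over all genes had a median of 0.67, and once this trend was removed, the class medians were −0.29 for H1, −1.40 for H2A, −0.62 for H2B, −0.89 for H3 and −0.54 for H4. Of the 59 tested members, 51 lay below the trend. In that analysis 14 members (23.7%) were depleted, against a background of 11.6%. They were 8 H2A, 2 H2B, 3 H3 and 1 H4 gene. The 2 enriched members (3.39%, background 14.3%) were H2bc23 and H2bc6, while H2ac15 was no longer called. Among other protein-coding genes with 1 exon, 456 were tested, and their median log2 fold change was 0.90. Of these, 174 (38.2%) were enriched and 29 (6.36%) depleted. This median lay above that of the histone members, most of which also have 1 exon, and no test was applied to the difference. The 2 sets are unlike in other ways. The median exon length was 2176 bases, compared with 496 for the tested members. The median level was 6.06 CPM, compared with 1.27, and the median GC content 52.4%, compared with 60.9%. Why GC content and log2 fold change move together was not tested.

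**Figure D4:**
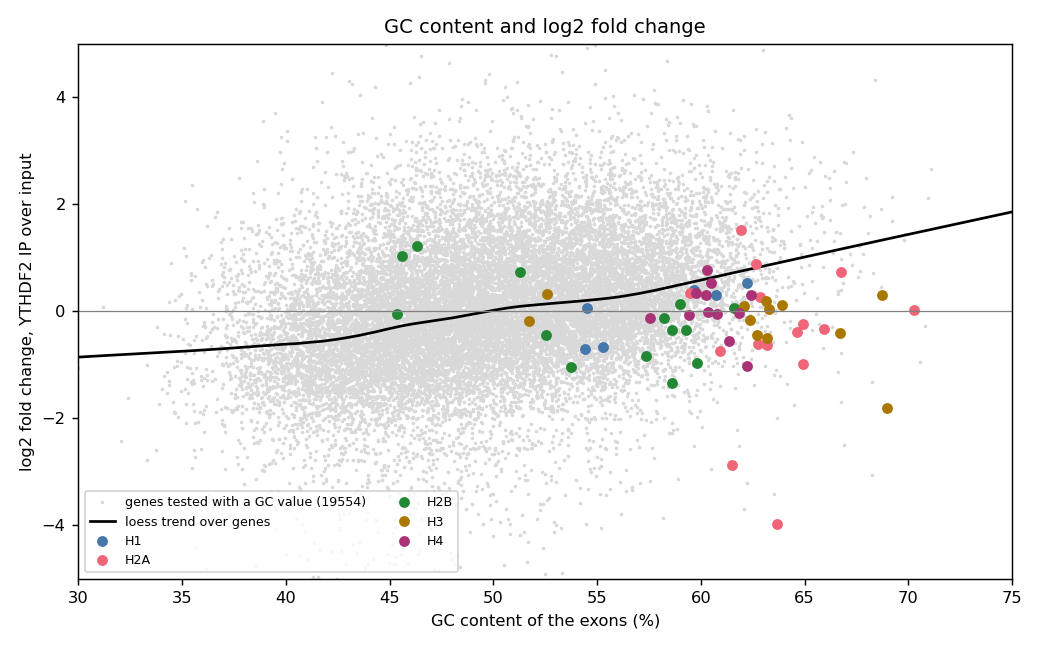
Log2 fold change of YTHDF2 IP over input (vertical axis) against the GC content of the exons in percent, with tested genes in grey, the loess trend as a line and members coloured by class. The line rises with GC content, and 51 of the 59 tested members lie below it, mostly at the right; points outside the axes are not drawn.

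The replication-independent histone genes, which were counted far more deeply, were set beside the members. Of 11 genes tested, 2 were enriched (18.2%, background 15.2%) and 4 depleted (36.4%, background 14.0%) at the same thresholds, and 10 passed the adjusted p-value at any fold change (90.9%, background 58.6%). The list had a median log2 fold change of −0.01. It includes H2ax, which also gives a stem-loop mRNA. Without H2ax, 1 of 10 genes was enriched and 4 were depleted, and the median was −0.49. H2ax had 29724, 193940 and 192683 counts, or 2.66 ± 0.05 (adjusted p = 1.05e-60), so that its counts were 5.85 times those of all 64 members in the input and 32.7 and 33.3 times in the IP libraries. H1f10, a linker histone outside the replication-dependent clusters, had 3861, 9899 and 10224 counts (1.34 ± 0.07, adjusted p = 2.33e-30), and −0.08 with the GC trend removed. H2ax stayed at 1.88 there. With a fixed dispersion of 0.1, 4 of the 11 passed the adjusted p-value, namely H2ax, H3f3a, H2az1 and Macroh2a1, so that H1f10 and Macroh2a2 were no longer called (adjusted p = 0.104 and 0.0808).

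The depleted genes were H3f3a, H2az1, Macroh2a1 and Macroh2a2. H3f3a, which encodes H3.3, had 16988, 4038 and 3964 counts (−2.13 ± 0.06, adjusted p = 2.44e-46). H3f3b encodes the same protein and had 38911, 20467 and 20785 counts, and at −0.96 ± 0.05 (adjusted p = 2.37e-30) it stayed under 2-fold. H2az1, the gene of H2A.Z, had 44192, 15064 and 15863 counts (−1.55 ± 0.05, adjusted p = 2.83e-43). Macroh2a1 and Macroh2a2, which encode macroH2A, were at −1.68 ± 0.07 and −1.30 ± 0.12 (adjusted p = 8.79e-36 and 1.05e-15). H1f0, H2az2 and H2aj passed the adjusted p-value within 2-fold, at 0.81, 0.49 and 0.31, and H2aj no longer passed with the GC trend removed (0.11, adjusted p = 0.271). Cenpa, the centromeric H3 gene, was at −0.01. The histone genes outside the clusters thus ran from a 6.33-fold rise (H2ax; 2.53-fold without it) to a 4.36-fold fall.

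**Figure D5:**
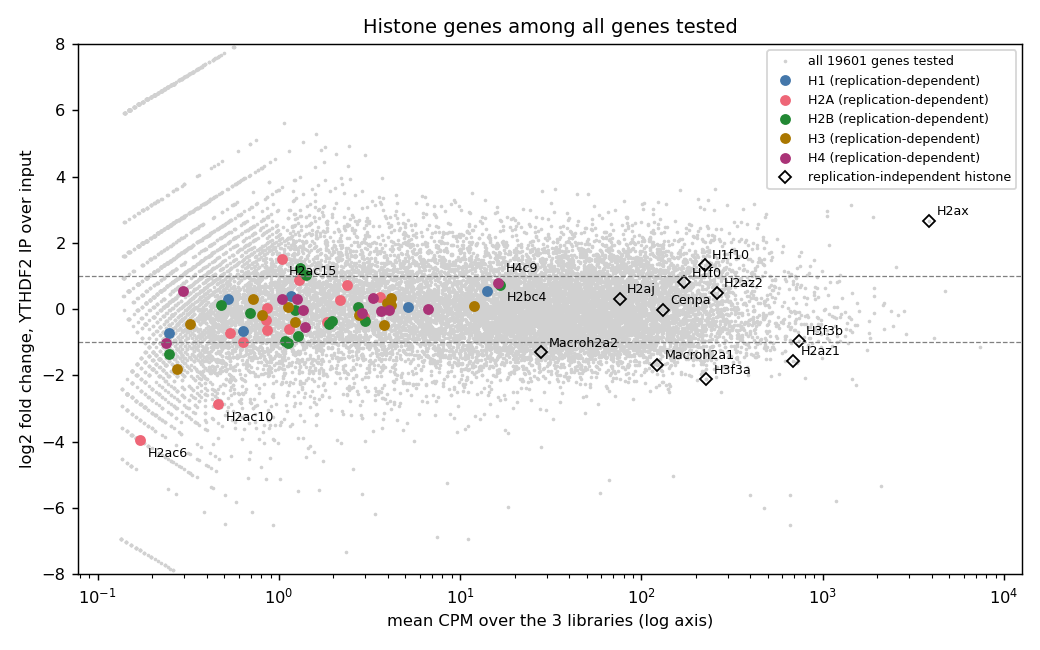
Log2 fold change of YTHDF2 IP over input (vertical axis) against mean CPM on a log axis for the 19601 genes tested (grey), the members by class (circles) and the replication-independent histone genes, H2ax included (diamonds); dashed lines mark 2-fold, and values beyond 8 are not drawn. Most members lie at the left within 2-fold, and H2ax (2.66) and H3f3a (−2.13) stand out among the diamonds at the right.

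The mRNAs of the factors that make and degrade histone mRNA were examined by the same test. Of 18 such genes 17 were tested, and 4 were enriched (23.5%, background 15.2%) and 6 depleted (35.3%, background 14.0%). In transcription, Npat, Hinfp and Casp8ap2 stayed within 2-fold. In processing of the 3′ end, Slbp had 5278, 2400 and 2587 counts and was depleted by −1.12 ± 0.07 (adjusted p = 1.59e-23). Lsm10, a subunit of the U7 snRNP that directs the cut, had 652, 6242 and 6404 counts and was enriched by 3.24 ± 0.09 (adjusted p = 1.51e-44), whereas its partner Lsm11 was at −0.21 and did not pass. Zfp473, which binds that complex, had 642, 1452 and 1579 counts and was enriched. The cleavage factor genes Cstf2 (−2.03), Sympk (−1.43) and Cpsf3 were depleted, the last with 4112, 2010 and 2211 counts and just past 2-fold.

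In translation of stem-loop mRNAs, Mif4gd (1.43) and Ctif (1.33) were both enriched. In decay, the uridyl transferase gene Tut4 (−2.13) and the exonuclease gene Eri1 (−1.07) were depleted, and Tut7 was at −0.60. Of 7 histone chaperone genes, 2 were enriched (28.6%, background 15.2%) and 1 depleted (14.3%, background 14.0%). Daxx (1.38) and Hira (1.01) were enriched, and Nasp, which handles H3 and H4, was depleted at −1.34, with 24185, 9623 and 9992 counts. Asf1a, Asf1b, Chaf1a and Chaf1b lay within 2-fold. With a fixed dispersion of 0.1, which allows libraries to vary far more than the 2 IP libraries did, only Lsm10, Cstf2 and Tut4 of the factors and none of the chaperones passed the adjusted p-value, and Slbp was at an adjusted p of 0.14. Slbp, Cpsf3 and Eri1 also came to lie within 2-fold when scaled to TPM (−0.97, −0.85 and −0.92) and with the GC trend removed (−0.94, −0.87 and −0.60). Nasp and Hira did so with the GC trend removed (−0.998 and 0.82), so that Daxx alone of the chaperones was called there. Scaling to library totals took Cpsf3 (−0.91) and Eri1 (−0.98) within 2-fold, and Cpsf3 was also lost with RLE scaling, without the low-count filter and with DESeq2.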

How the data were processed

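RIP-seq libraries of Dox-treated E14 ESCs (1 input, 2 YTHDF2 IPs) were grouped by sample title. The methods of the study describe an IP from cleared lysate without detergent, whereas the labels describe total RNA extracted before the IP. The authors aligned reads to mm10 (the submitters' processing notes name fastp 0.19.4, HISAT2 2.2.1 and DESeq2 1.40.2), and the deposited values are raw counts per gene. Per the file headers, featureCounts 2.0.3 was run for paired ends but counted the mates of a pair apart, without strand and without reads that mapped to several places.

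The counts were tested in R 4.3.3 with edgeR 4.0.16 (filterByExpr, TMM, glmQLFit with the robust option, glmQLFTest), over the 19601 genes that passed the filter, with Benjamini-Hochberg adjustment over all of them, and the 2 IP libraries gave a common dispersion of 0.00538. A gene was called where its adjusted p-value was below 0.05 and it differed by more than 2-fold. Fitted values use a prior count of 0.125 and single-library log2 ratios add 0.5 to each count. The fit averages counts, so that a class median of fitted values can lie outside those of the single IP libraries. The floor of 3 counts corresponds to 0.0811 (input), 0.0851 (IP replicate 1) and 0.0836 CPM (IP replicate 2). GC content, repeated windows and stem-loops were computed with Python 3.11.15 from merged exons on GRCm38.p6. Alternatives were DESeq2 1.42.0, other scalings and filters, halved counts, a fixed dispersion of 0.1, an older quasi-likelihood method, a loess trend (span 0.3) on GC content, and leaving out each IP library.

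The members and the lists were chosen with earlier results of these data known. All members could be named. Full values were given for the 2 highest and 2 lowest log2 fold changes per class at a mean of at least 10 CPM and for the 2 highest input levels per kilobase, for Slbp, H2az1, H3f3a and H3f3b, and for genes past the threshold. Others were singled out after their values were seen. The gene H4bc24 and the pseudogenes were left out by the rule on symbols.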

Additional observations from a re-analysis of the deposited data

How the results depend on the processing

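The counts of 1 enriched and 2 depleted members were small and moved with the settings. Enriched members numbered 2 (H2ac15 and H2bc23) with scaling to library totals, with scaling to TPM and with at least 10 counts in every library, and 2 (H2bc23 and H2bc6) with the GC trend removed. They numbered 0 without the filter, with a fixed dispersion of 0.1, with halved counts and with DESeq2. Depleted members numbered 1 without the filter (H2ac10) and 1 with at least 10 counts in every library (H2bc18, since H2ac6 and H2ac10 were then not tested), 14 with the GC trend removed and 0 with DESeq2. Over all genes the shares called higher and lower were 14.3% and 11.6% with the GC trend removed, 12.5% and 10.6% with DESeq2, 9.23% and 8.37% without the filter, 16.1% and 14.0% with at least 10 counts in every library, and 8.05% and 7.81% with a fixed dispersion of 0.1. The share called higher was 16.9%, 18.3% and 14.4% with scaling to library totals, with scaling to TPM and with halved counts. With RLE scaling and with the older quasi-likelihood method, which was chosen after seeing the data, the same 3 members were called. With 1 IP library left out no test was possible, and 2 to 3 members were over 2-fold higher and 7 over 2-fold lower, compared with 3 and 6 by fold alone in the full fit.

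The GC trend moved the class medians most, to −0.29 for H1, −1.40 for H2A, −0.62 for H2B, −0.89 for H3 and −0.54 for H4. Scaling to TPM gave 0.34 for H1, −0.087 for H2B, 0.092 for H3 and 0.13 for H4, and it raised the median of all genes to 0.16, while scaling to library totals gave −0.14 for H2B and 0.075 for H4 and raised it to 0.10. With at least 10 counts in every library the medians were 0.32 for H1, −0.12 for H2B and 0.072 for H3, and without the filter that of H4 was 0.0027. Leaving out each IP library gave −0.21 to −0.048 for H1, −0.36 to −0.24 for H2B, −0.23 to −0.062 for H3 and −0.0001 to 0.025 for H4. H2A stayed between −0.50 and −0.09 there. With the GC trend removed, H1f2 turned to −0.24, H1f1 to −0.15, H2ac8 to −0.19, H3c3 to −0.67 (adjusted p = 0.000983) and H1f10 to −0.078. H4c18 turned to 0.083, 0.14 and 0.011 with scaling to library totals, to TPM and without the filter, and fell to −0.63 with the GC trend removed (adjusted p = 0.0179). The causes were not tested.

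No paired analysis was possible because the input has 1 library, which shares a replicate number with at most 1 IP library. Depth limits most members, since 41 of the 59 tested had a mean under 100 counts, and of these only 1 had a 95% interval within 2-fold.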
